A study of Homo sapiens with 6 samples.

Results

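The genes described here are 39 genes of the Fanconi anaemia pathway and of homologous recombination, picked by symbol from a table of 60623 human genes. They were read in 3 poly(A) mRNA libraries from MRC5, an established line of normal human lung fibroblasts labelled wild type, all taken at 48 h. The first library came from cells given luteolin plus TGF-β1, the second from cells given TGF-β1, and the third from control cells labelled DMSO. Luteolin is a plant flavonoid and TGF-β1 is the cytokine that drives fibroblasts towards a matrix-producing state. The labels give no dose, no order of addition, and no vehicle for the TGF-β1 or luteolin plus TGF-β1 cells. Each group was 1 library, so no difference has a replicate check, and the 95% intervals below cover counting error only.

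The Fanconi pathway repairs DNA whose strands have been covalently cross-linked. Its core complex attaches ubiquitin to FANCD2 and FANCI, nucleases then unhook the cross-link, and homologous recombination mends the resulting break from the sister chromatid. In that last step the ends are resected, BRCA1 and BRCA2 with their partners prepare the broken strand to invade its intact copy, and the joined molecules are later dissolved or cut. Since a sister chromatid exists only after replication, many of these genes are transcribed mainly in the S and G2 phases of dividing cells.

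The libraries held 15563805 counts for luteolin plus TGF-β1, 14609132 for TGF-β1 and 17876657 for control. A difference is a log2 ratio of counts scaled by library total and TMM factor, and a gene was called when the ratio reached 2-fold and its exact 95% interval excluded equality. Levels are the authors' TPM, which corrects for transcript length and is scaled differently from the ratios. All 39 genes passed the minimum of 1 CPM, a count scaled to library size, in each comparison. The 8 lung fibroblast markers, mostly COL1A1 and COL1A2, summed to 19340 TPM in luteolin plus TGF-β1 cells, 14298 TPM in TGF-β1 cells and 10048 TPM in control cells, with 0 of 8 at 0. Members of this list went both ways in luteolin plus TGF-β1 cells against TGF-β1 cells, with COL1A2 and PDGFRB called higher and S100A4 called lower, at a log2 ratio of -1.61. Epithelial, endothelial and leukocyte marker lists each summed to at most 1.29 TPM in any of the libraries, and PECAM1 and PTPRC were listed at 0 in all of them.

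In luteolin plus TGF-β1 cells, at least 1 gene of each of the 10 roles considered here was called lower than in TGF-β1 cells. In some roles most genes were not called, as in the checkpoint role with 1 of 3 called lower. Against TGF-β1 cells, 27 of the 39 genes were called lower and 0 higher, where 14.8% of the 13703 genes tested were called lower and 12.5% higher. The median log2 ratio of the 39 genes was -2.16, beside -0.04 over all genes tested. Of the 39 genes, 23 were at a log2 ratio of -2 or lower, as were 752 of all 13703 genes tested. Summed over the 39 genes, the level was 166 TPM in luteolin plus TGF-β1 cells, 662 TPM in TGF-β1 cells and 594 TPM in control cells. The number of these 39 genes under 2 TPM was 17 in luteolin plus TGF-β1 cells, 2 in TGF-β1 cells and 2 in control cells. Genes under 2 TPM were not counted over all genes. In such bulk libraries, fewer cells of a type and less RNA per cell cannot be told apart.

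**Figure D1:**
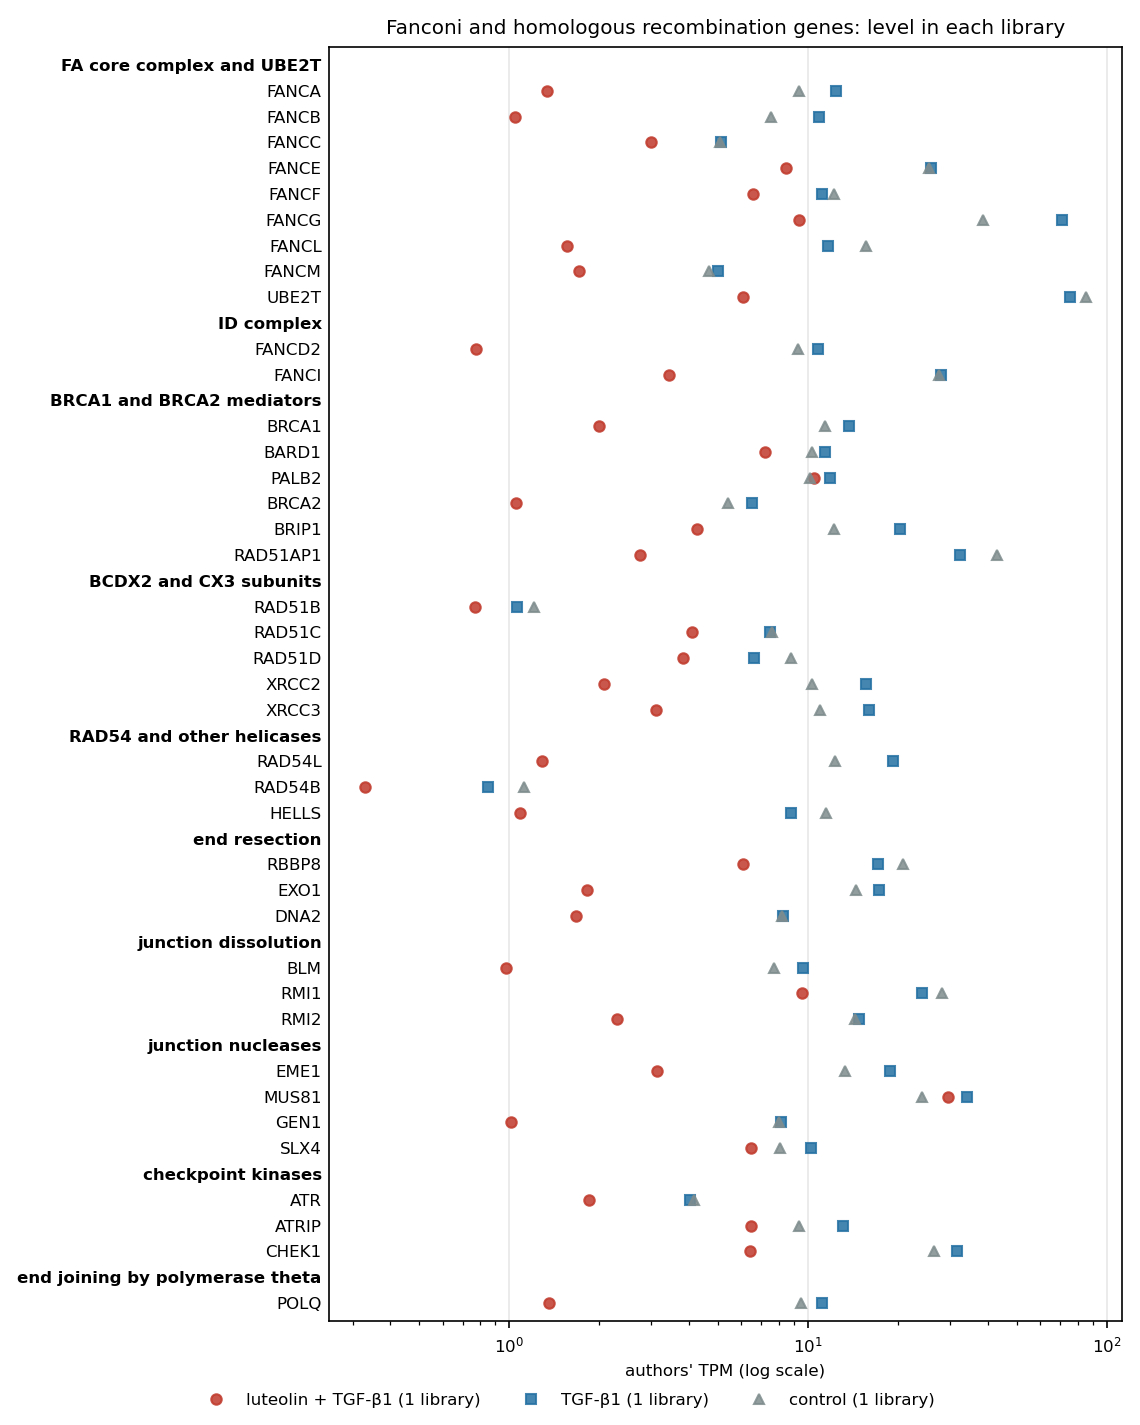
Level of each of the 39 genes, grouped by role, in the luteolin plus TGF-β1 library (circles), the TGF-β1 library (squares) and the control library (triangles), as the authors' TPM on a log axis, with 1 library per group and no error bars. The circles lie to the left of both other symbols except at MUS81 and PALB2, while squares and triangles of each gene lie within 2-fold of each other.

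The core complex, the ubiquitin ligase of the pathway, had 6 of 8 genes called lower in luteolin plus TGF-β1 cells than in TGF-β1 cells, with a median log2 ratio of -2.05. UBE2T, the ubiquitin-conjugating enzyme that works with it and was called lower too, had a level of 6.08 TPM in luteolin plus TGF-β1 cells, 75.5 TPM in TGF-β1 cells and 85.3 TPM in control cells. Its log2 ratio to TGF-β1 was -3.43 (interval -3.93 to -2.96). FANCL, the subunit that carries the ligase activity, had 1.56 TPM in luteolin plus TGF-β1 cells, 11.7 TPM in TGF-β1 cells and 15.7 TPM in control cells, and a log2 ratio to TGF-β1 of -2.69 (interval -3.58 to -1.91). FANCL had 15 counts in luteolin plus TGF-β1 cells, 106 in TGF-β1 cells and 184 in control cells, and VRK2, whose annotated span overlaps it, had 91, 279 and 294 in the luteolin plus TGF-β1, TGF-β1 and control cells. FANCB, which binds FANCL in the catalytic module, stood at 1.05 TPM in luteolin plus TGF-β1 cells, 10.9 TPM in TGF-β1 cells and 7.51 TPM in control cells, with a log2 ratio of -3.17.

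FANCA and FANCG, which bind each other in the complex, were both low. FANCA had 1.34 TPM in luteolin plus TGF-β1 cells, 12.4 TPM in TGF-β1 cells and 9.33 TPM in control cells, a log2 ratio of -3.0 to TGF-β1 (interval -3.44 to -2.58). FANCG had 9.37 TPM in luteolin plus TGF-β1 cells, 70.8 TPM in TGF-β1 cells and 38.7 TPM in control cells, a log2 ratio of -2.71 (interval -2.98 to -2.44). FANCE, the subunit that contacts FANCD2, and FANCM, the DNA translocase that anchors the complex to chromatin, were called lower by less, with log2 ratios of -1.40 and -1.33. FANCC and FANCF were the core genes not called, at log2 ratios of -0.56 (interval -0.86 to -0.27) and -0.56 (interval -0.99 to -0.14). FANCC, the partner of FANCE, had 3.0 TPM in luteolin plus TGF-β1 cells, 5.13 TPM in TGF-β1 cells and 5.10 TPM in control cells. The 8 core genes, without UBE2T, summed to 33.1 TPM in luteolin plus TGF-β1 cells, 153 TPM in TGF-β1 cells and 119 TPM in control cells.

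FANCD2 and FANCI form the clamp that receives the ubiquitin and closes around DNA. FANCD2 (protein-coding, chr3:10026437-10101932) had 26 counts in luteolin plus TGF-β1 cells, 341 in TGF-β1 cells and 377 in control cells. In levels these are 0.779 TPM in luteolin plus TGF-β1 cells, 10.8 TPM in TGF-β1 cells and 9.27 TPM in control cells, and its log2 ratio to TGF-β1 was -3.59 (interval -4.22 to -3.01), or 12.0-fold lower. FANCI had 106 counts in luteolin plus TGF-β1 cells, 813 counts in TGF-β1 cells and 1039 counts in control cells, and its log2 ratio to TGF-β1 was -2.81 (interval -3.12 to -2.52). The luteolin plus TGF-β1 library was thus far below both other libraries for each member of the clamp, while the TGF-β1 and control libraries were close.

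Among the BRCA1 and BRCA2 mediators, which prepare the broken strand, 4 of 6 were called lower. BRCA1 (protein-coding, chr17:43044295-43170327), a ubiquitin ligase and scaffold, had 74 counts in luteolin plus TGF-β1 cells, 481 in TGF-β1 cells and 514 in control cells. In levels these are 2.0 TPM in luteolin plus TGF-β1 cells, 13.8 TPM in TGF-β1 cells and 11.4 TPM in control cells, and the log2 ratio to TGF-β1 was -2.57 (interval -2.95 to -2.22). BRCA2, a mediator that works on single-stranded DNA, had 1.06 TPM in luteolin plus TGF-β1 cells, 6.50 TPM in TGF-β1 cells and 5.41 TPM in control cells and a log2 ratio of -2.41 (interval -2.85 to -1.99). BRIP1, the helicase that binds BRCA1, had 4.27 TPM in luteolin plus TGF-β1 cells, 20.4 TPM in TGF-β1 cells and 12.3 TPM in control cells and a log2 ratio of -2.04 (interval -2.32 to -1.77). RAD51AP1, which stimulates strand pairing, had 2.75 TPM in luteolin plus TGF-β1 cells, 32.2 TPM in TGF-β1 cells and 43.1 TPM in control cells and a log2 ratio of -3.34 (interval -3.96 to -2.78).

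The other 2 of these 6 genes, BARD1 and PALB2, were not called. BARD1, the obligate partner of BRCA1 in the ligase, had 217 counts in luteolin plus TGF-β1 cells, 324 in TGF-β1 cells and 379 in control cells, a log2 ratio to TGF-β1 of -0.45 (interval -0.71 to -0.20). PALB2 (protein-coding, chr16:23603165-23641310), the bridge between BRCA1 and BRCA2, had 198 counts in luteolin plus TGF-β1 cells, 212 counts in TGF-β1 cells and 235 counts in control cells and a log2 ratio to TGF-β1 of 0.03 (interval -0.26 to 0.31). With scaling by total counts alone PALB2 was at -0.19, and with upper-quartile scaling at 0.20, so its direction depends on the scaling. The level of PALB2 was 10.5 TPM in luteolin plus TGF-β1 cells, 11.9 TPM in TGF-β1 cells and 10.2 TPM in control cells.

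The subunits of the BCDX2 and CX3 complexes, which assist strand invasion, were split, with 2 of 5 called lower. XRCC2 had 2.08 TPM in luteolin plus TGF-β1 cells, 15.7 TPM in TGF-β1 cells and 10.3 TPM in control cells, a log2 ratio of -2.71 to TGF-β1 (interval -3.22 to -2.23). XRCC3 had 3.11 TPM in luteolin plus TGF-β1 cells, 16.1 TPM in TGF-β1 cells and 11.0 TPM in control cells, a log2 ratio of -2.16 (interval -2.50 to -1.83). RAD51C, which sits in complexes with each of them, had 4.09 TPM in luteolin plus TGF-β1 cells, 7.50 TPM in TGF-β1 cells and 7.57 TPM in control cells, a log2 ratio of -0.66 (interval -1.03 to -0.30). RAD51D was at -0.58 (interval -0.86 to -0.30), and RAD51B, read from 23 counts in luteolin plus TGF-β1 cells, 30 counts in TGF-β1 cells and 44 counts in control cells, at -0.26 (interval -1.11 to 0.58), which does not separate it from equality at this depth.

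RAD54L, a motor protein that moves along DNA during strand invasion, had the lowest log2 ratio to TGF-β1 of the 39 genes, -3.69 (interval -4.40 to -3.05). RAD54L (protein-coding, chr1:46247688-46278473) had 21 counts in luteolin plus TGF-β1 cells, 295 in TGF-β1 cells and 245 in control cells, with levels of 1.29 TPM in luteolin plus TGF-β1 cells, 19.2 TPM in TGF-β1 cells and 12.4 TPM in control cells. Its paralog RAD54B was the most weakly measured of the 39 genes, at 7 counts in luteolin plus TGF-β1 cells, 17 counts in TGF-β1 cells and 29 counts in control cells, and its log2 ratio of -1.15 had an interval of -2.67 to 0.19. HELLS, a chromatin remodeller of the same helicase superfamily, had 1.09 TPM in luteolin plus TGF-β1 cells, 8.76 TPM in TGF-β1 cells and 11.5 TPM in control cells and a log2 ratio of -2.80 (interval -3.29 to -2.34).

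All 3 end-resection genes and all 3 genes of junction dissolution were called lower in luteolin plus TGF-β1 cells than in TGF-β1 cells, by unequal amounts. EXO1, an exonuclease of long-range resection, had 1.82 TPM in luteolin plus TGF-β1 cells, 17.3 TPM in TGF-β1 cells and 14.5 TPM in control cells, a log2 ratio to TGF-β1 of -3.04. DNA2, the helicase-nuclease of the parallel route, was at a log2 ratio of -2.09, and RBBP8, which encodes CtIP and starts resection with the MRN nuclease, at -1.29 (interval -1.60 to -0.99). BLM, the helicase that migrates double Holliday junctions, had 0.980 TPM in luteolin plus TGF-β1 cells, 9.63 TPM in TGF-β1 cells and 7.74 TPM in control cells, a log2 ratio of -3.09 (interval -3.73 to -2.50). Its accessory subunits RMI2 and RMI1 were at log2 ratios of -2.48 and -1.12. RMI1 was at -0.94 with upper-quartile scaling, which ends its call.

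Of the nucleases that cut junctions, 2 of 4 were called lower. EME1, the non-catalytic subunit of the MUS81 endonuclease, had 3.12 TPM in luteolin plus TGF-β1 cells, 18.8 TPM in TGF-β1 cells and 13.3 TPM in control cells, a log2 ratio to TGF-β1 of -2.38 (interval -2.90 to -1.90). GEN1, the Holliday junction resolvase, had 1.02 TPM in luteolin plus TGF-β1 cells, 8.14 TPM in TGF-β1 cells and 8.01 TPM in control cells and a log2 ratio of -2.79. MUS81 (protein-coding, chr11:65859674-65867653), the catalytic subunit, had 641 counts in luteolin plus TGF-β1 cells, 698 in TGF-β1 cells and 637 in control cells. Its log2 ratio to TGF-β1 was 0.00 (interval -0.15 to 0.16), and -0.21 with total counts and 0.18 with upper-quartile scaling. MUS81 made up 17.8% of the summed TPM of the 39 genes in luteolin plus TGF-β1 cells, 5.15% in TGF-β1 cells and 4.05% in control cells. The annotated spans of MUS81 and EFEMP2 overlap by 1213 bases, EFEMP2 had 6962 counts in luteolin plus TGF-β1 cells, 3410 counts in TGF-β1 cells and 4834 counts in control cells, and without a stated strand setting its part in the MUS81 counts was not tested. The spans of FANCA and ZNF276, FANCC and AOPEP, XRCC3 and KLC1, RAD54L and LRRC41, EME1 and LRRC59, and RMI1 and HNRNPK overlap too. So do those of FANCI and POLG, GEN1 and SMC6, and RAD54B and FSBP. FSBP overlaps RAD54B by 9229 bases and had 24 counts in luteolin plus TGF-β1 cells, 59 in TGF-β1 cells and 77 in control cells. Its part in the low counts of RAD54B was not tested. SLX4, the scaffold that holds several of these nucleases, was at a log2 ratio of -0.46 (interval -0.71 to -0.21).

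Of the checkpoint genes, which slow the cycle when forks stall, 1 of 3 was called lower. CHEK1, the kinase that ATR activates, had 6.40 TPM in luteolin plus TGF-β1 cells, 31.6 TPM in TGF-β1 cells and 26.4 TPM in control cells, a log2 ratio to TGF-β1 of -2.09 (interval -2.38 to -1.82). The upstream kinase ATR was at -0.92 (interval -1.17 to -0.67) and its partner ATRIP at -0.80 (interval -1.11 to -0.50), neither called. Under scaling by total counts they were at -1.13 and -1.02, and RAD54B at -1.37, and all 3 were then called lower. POLQ, the polymerase of an alternative end-joining route that shares resected ends with recombination, had 1.36 TPM in luteolin plus TGF-β1 cells, 11.2 TPM in TGF-β1 cells and 9.51 TPM in control cells and a log2 ratio of -2.83 (interval -3.28 to -2.40).

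**Figure D2:**
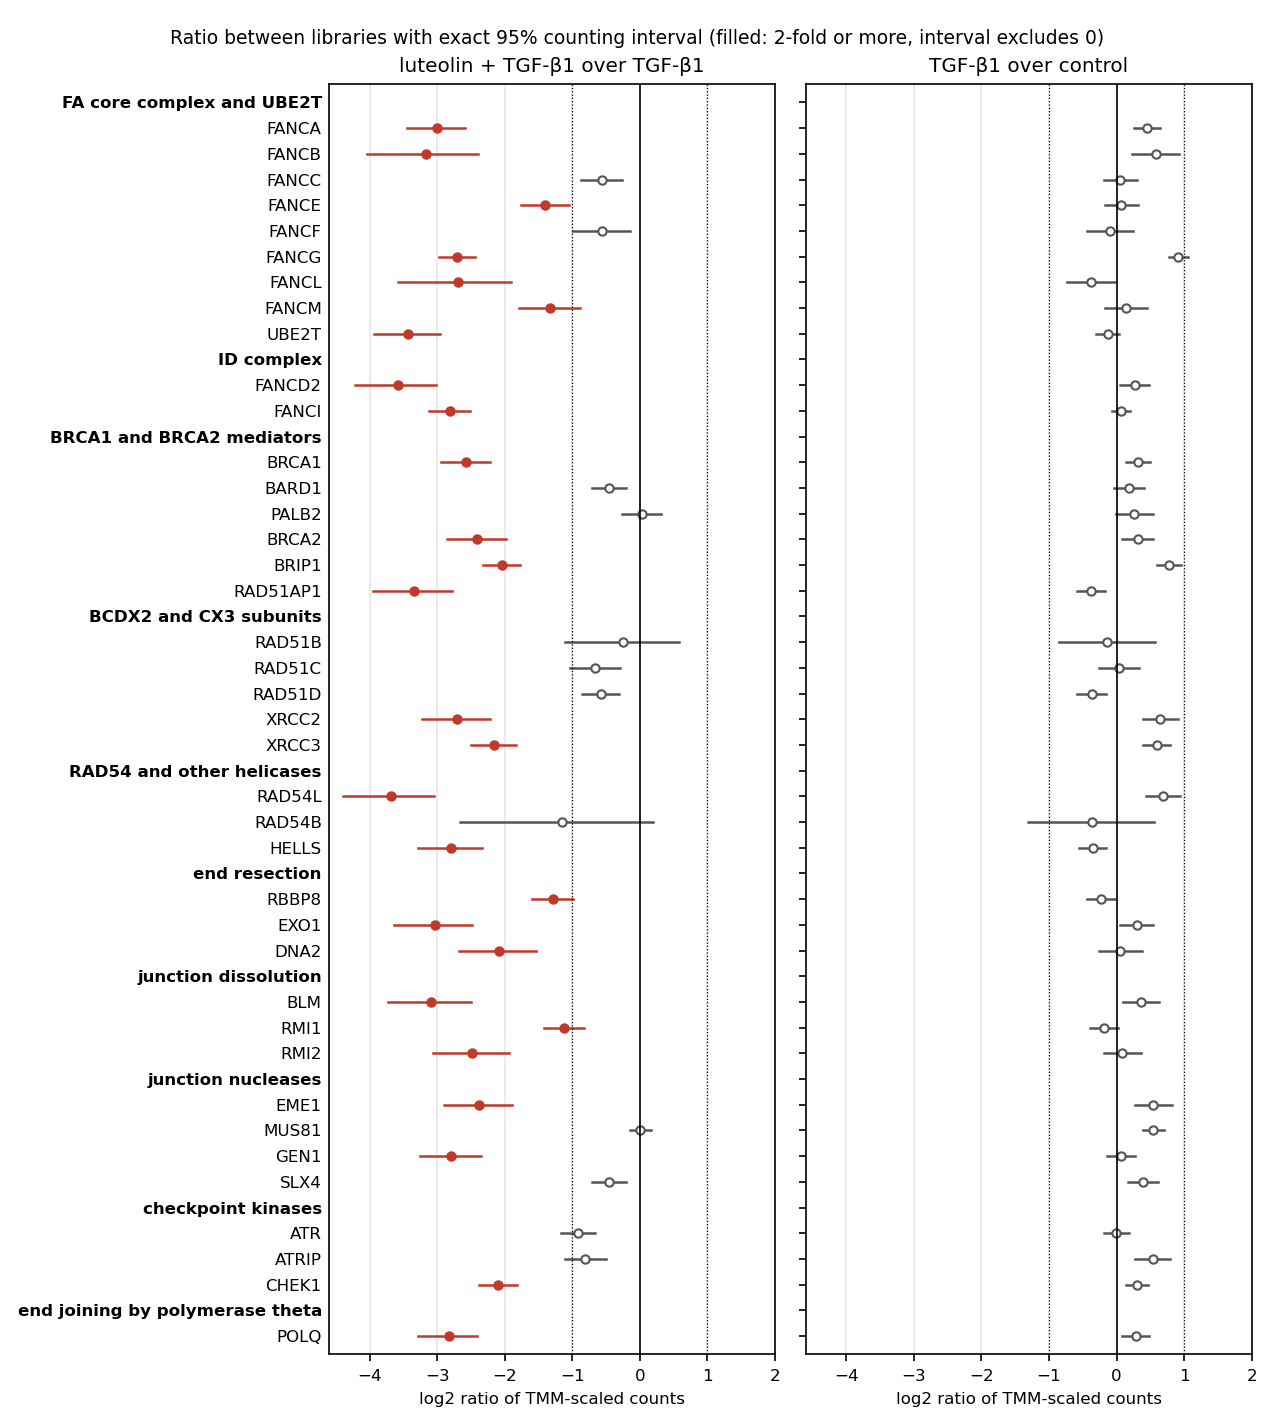
Log2 ratio of scaled counts for each of the 39 genes, with exact 95% counting intervals, for luteolin plus TGF-β1 over TGF-β1 and for TGF-β1 over control, with 1 library per group. The luteolin ratios run between -3.69 at RAD54L and 0.03 at PALB2, and the TGF-β1 ratios between -0.38 at FANCL and 0.92 at FANCG.

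In TGF-β1 cells these genes stayed within 2-fold of the control, by their estimates. Of the 39 genes, 0 were called higher and 0 lower in TGF-β1 cells than in control cells, where 3.70% of the 13416 genes tested were called higher and 6.67% lower. Among 39 genes, counts of 0 are near these shares. The median log2 ratio was 0.19, beside -0.01 over all genes tested, and 18 intervals lay above equality, 5 below it and 16 included it. Such intervals were not counted over all genes. FANCG came nearest to the 2-fold limit, with 961 counts in TGF-β1 cells and 679 in control cells, a log2 ratio of 0.92 (interval 0.77 to 1.06). BRIP1, at 612 counts in TGF-β1 cells and 476 in control cells, followed with a log2 ratio of 0.78 (interval 0.60 to 0.95). RAD54L was at 0.68, XRCC2 at 0.65 and XRCC3 at 0.59. FANCL at -0.38 and RAD51AP1 at -0.37 were the lowest. The number of the 39 genes above equality was 28 with TMM, 29 with upper-quartile scaling and 21 with total counts, which lowered the median of all genes by 0.13. With TMM, 6523 of all 13416 genes tested were above equality.

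Set against the control, luteolin plus TGF-β1 cells had 28 of the 39 genes called lower and 0 higher, where 17.1% of the 13859 genes tested were called lower and 12.4% higher. The median log2 ratio was -1.79. RAD51AP1 was the lowest, with 28 counts in luteolin plus TGF-β1 cells and 535 in control cells, a log2 ratio of -3.71. MUS81, at 0.55 (interval 0.39 to 0.71), and PALB2, at 0.29 (interval 0.01 to 0.57), were the genes whose interval lay above equality. With total counts MUS81 was at 0.21 and PALB2 at -0.05. This comparison shares its luteolin plus TGF-β1 library with the first and its control library with the second, so the 3 are not independent.

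Because several of these proteins work as fixed pairs, the level of 1 partner relative to the other was followed in each library for 20 pairs, which were picked after the values were seen. A shift in such a ratio does not depend on how the libraries are scaled, and its sign depends on which partner is written first. BRCA1 stood at 0.277 times the TPM of BARD1 in luteolin plus TGF-β1 cells, 1.21 times in TGF-β1 cells and 1.10 times in control cells, a log2 shift between the first 2 of -2.12 (interval -2.57 to -1.68). The ratio of EME1 to MUS81 was 0.106 in luteolin plus TGF-β1 cells, 0.552 in TGF-β1 cells and 0.553 in control cells in TPM, a log2 shift of -2.38 (interval -2.92 to -1.87). The ratio of XRCC2 to RAD51D was 0.544 in luteolin plus TGF-β1 cells, 2.37 in TGF-β1 cells and 1.17 in control cells, a log2 shift of -2.12 between luteolin plus TGF-β1 and TGF-β1, and of 1.01 (interval 0.68 to 1.35) between TGF-β1 and control. BLM relative to RMI1 stood at 0.102 in luteolin plus TGF-β1 cells, 0.401 in TGF-β1 cells and 0.274 in control cells in TPM.

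The ratio of ATR to ATRIP was 0.286 in luteolin plus TGF-β1 cells, 0.309 in TGF-β1 cells and 0.447 in control cells, a log2 shift of -0.11 between the first 2 (interval -0.51 to 0.29). FANCD2 relative to FANCI stood at 0.227 in luteolin plus TGF-β1 cells, 0.389 in TGF-β1 cells and 0.336 in control cells in TPM, a log2 shift of -0.77 (interval -1.48 to -0.11). BRIP1 relative to BRCA1 shifted by 0.53 (interval 0.07 to 1.00).

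**Figure D3:**
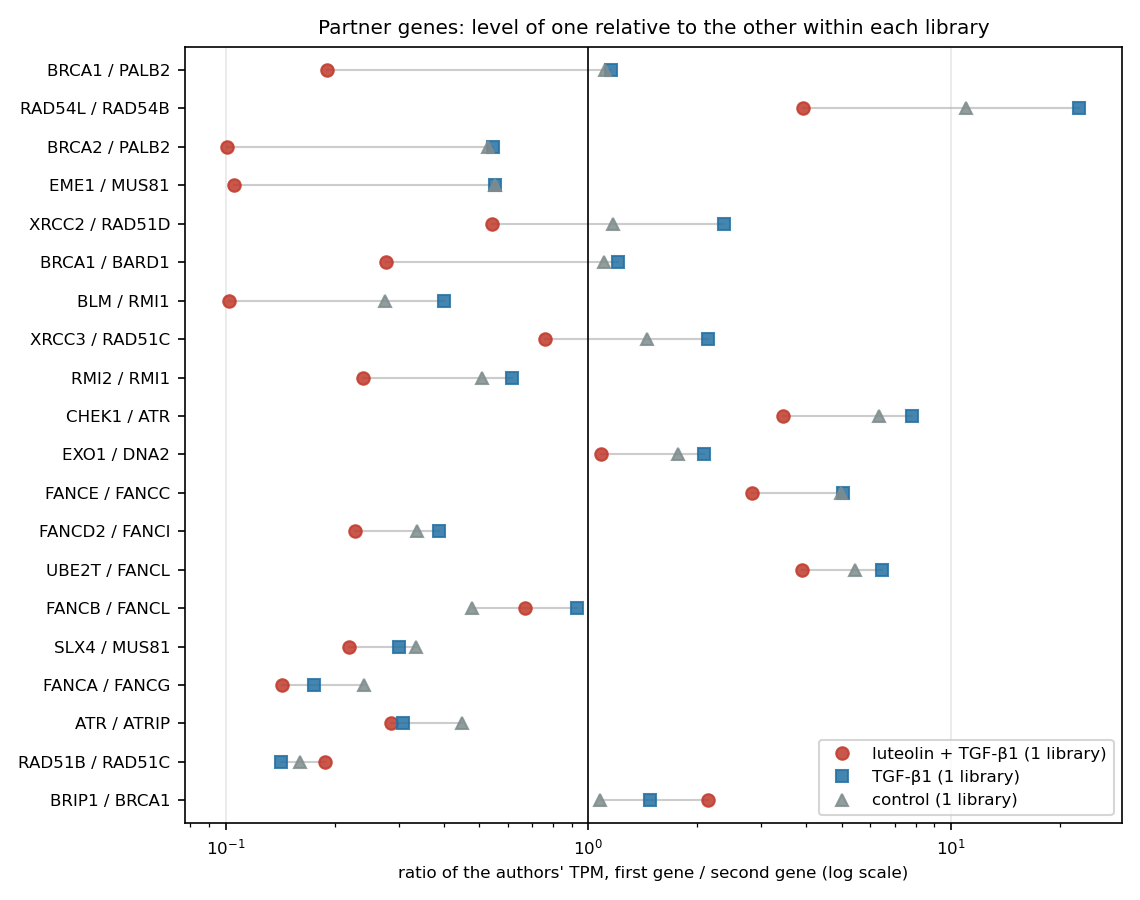
Ratio of the TPM of 1 gene to that of its partner for the 20 pairs, in the luteolin plus TGF-β1, TGF-β1 and control libraries, on a log axis with 1 library per group. BRCA1 over BARD1 is 0.277, 1.21 and 1.10 in those libraries, whereas ATR over ATRIP is 0.286, 0.309 and 0.447.

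Promoter sequences from RefSeq (GRCh38.p14) were matched by symbol to 35 of the 39 genes, and DNA2, RMI2, FANCI and RAD54B were not matched. The windows reach 250 bases upstream of each start and 50 past it, and 5 are shown in their upstream part to set genes called lower beside genes that were not. HELLS (chr10:94545668-94545787, plus strand) and FANCA (chr16:89816648-89816827, minus strand) were called lower and hold a word bound by E2F factors, which drive S-phase genes. FANCC (chr9:95317710-95317889, minus strand) holds such words and was not called. BRCA1 (chr17:43125365-43125554, minus strand, at the start that faces NBR2) was called lower and PALB2 (chr16:23641311-23641460, minus strand) was not. Both hold a CCAAT box, the binding word of NF-Y, and no exact match to the E2F words listed below. Each is written 5′ to 3′ on the strand of its gene and ends at the base before the start, with E2F words and CCAAT boxes, in either orientation, in capitals.
HELLS: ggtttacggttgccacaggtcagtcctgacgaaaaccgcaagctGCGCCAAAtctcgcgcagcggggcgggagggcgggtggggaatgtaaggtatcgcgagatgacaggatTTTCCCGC
FANCA: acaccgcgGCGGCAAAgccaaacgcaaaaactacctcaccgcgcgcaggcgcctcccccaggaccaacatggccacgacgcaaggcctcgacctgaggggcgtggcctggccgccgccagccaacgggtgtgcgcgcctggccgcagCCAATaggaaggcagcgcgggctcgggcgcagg
FANCC: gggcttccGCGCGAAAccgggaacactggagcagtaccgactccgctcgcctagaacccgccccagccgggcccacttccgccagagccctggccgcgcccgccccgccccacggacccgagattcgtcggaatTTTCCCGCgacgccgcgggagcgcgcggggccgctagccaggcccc
BRCA1: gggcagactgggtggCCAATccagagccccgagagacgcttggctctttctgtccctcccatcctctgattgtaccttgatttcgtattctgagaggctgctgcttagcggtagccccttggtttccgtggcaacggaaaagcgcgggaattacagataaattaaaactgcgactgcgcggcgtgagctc
PALB2: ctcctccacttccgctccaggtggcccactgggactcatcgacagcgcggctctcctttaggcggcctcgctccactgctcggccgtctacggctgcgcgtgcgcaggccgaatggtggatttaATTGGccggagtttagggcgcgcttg

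The E2F words searched were TTTCCCGC, TTTCGCGC, TTTGCCGC and TTTGGCGC on both strands. They were in 8 of the 48 windows of these genes (16.7%), against 3.31% of all 35116 windows and 4.93% of the 14349 windows of protein-coding genes at 1 CPM or more. Of the 8 genes with a word, FANCA, FANCD2, XRCC2, HELLS, EXO1, RMI1 and GEN1 were called lower in luteolin plus TGF-β1 cells than in TGF-β1 cells and FANCC was not. Their median log2 ratio was -2.79. The 27 genes without a word had 17 called lower and a median of -2.04, UBE2T and RAD54L among them. The word CCAAT was in 43.8% of the windows of these genes, 34.6% of all windows and 34.8% of those of protein-coding genes at 1 CPM or more. The cell-cycle word TTTGAA was in 8.33% of the windows of these genes, 15.2% of all windows and 10.5% of those of protein-coding genes at 1 CPM or more. The words share no letters with one another in the stretches shown, and a match describes the letters and not a bound site. A window without a word lacks only these exact letters, since near matches were not searched.

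Several of the 39 genes start back to back with a neighbour on the other strand. Of 16 neighbours whose start lay within 1000 bases, 10 passed 1 CPM in the luteolin plus TGF-β1 or TGF-β1 library, with 0 called lower, 2 higher and a median log2 ratio of 0.20. With so few genes, these counts are near the 14.8% lower and 12.5% higher over all genes tested. FERRY3 starts 421 bases from RAD51AP1 and had 309 counts in luteolin plus TGF-β1 cells and 391 in TGF-β1 cells, a log2 ratio of -0.21. SMC6, a subunit of the SMC5/6 repair complex, starts 59 bases from GEN1 and was at -0.40. The annotated spans of SMC6 and GEN1 overlap by 533 bases, so they may share reads. MRPL27, a mitochondrial ribosomal protein gene 45 bases from EME1, was at -0.64, and HNRNPK, 144 bases from RMI1, at -0.68. SNHG31 beside BARD1, CRTC3-AS1 beside BLM and RBBP8-AS1 beside RBBP8 had 11, 4 and 0 counts in luteolin plus TGF-β1 cells and 4, 2 and 0 in TGF-β1 cells, too few to place.

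NBR2, a non-coding gene that starts 193 bases from BRCA1, had 101 counts in luteolin plus TGF-β1 cells, 40 in TGF-β1 cells and 62 in control cells, a log2 ratio to TGF-β1 of 1.46 (interval 0.92 to 2.03). It was called higher, beside BRCA1 at -2.57. The annotated spans of NBR2 and BRCA1 overlap, and reads of overlapping genes cannot be told apart without the strand setting. NBR1, 82 bases from another annotated start of BRCA1, was at 0.14. The other neighbour called higher was DNASE1, 154 bases from SLX4, with 510 counts in luteolin plus TGF-β1 cells, 181 counts in TGF-β1 cells and 284 counts in control cells and a log2 ratio of 1.62 (interval 1.37 to 1.87). DCTN5, a dynactin gene 156 bases from PALB2, was at 0.34, ZFYVE21 beside XRCC3 at 0.46 and MOSPD2 beside FANCB at 0.26.

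**Figure D4:**
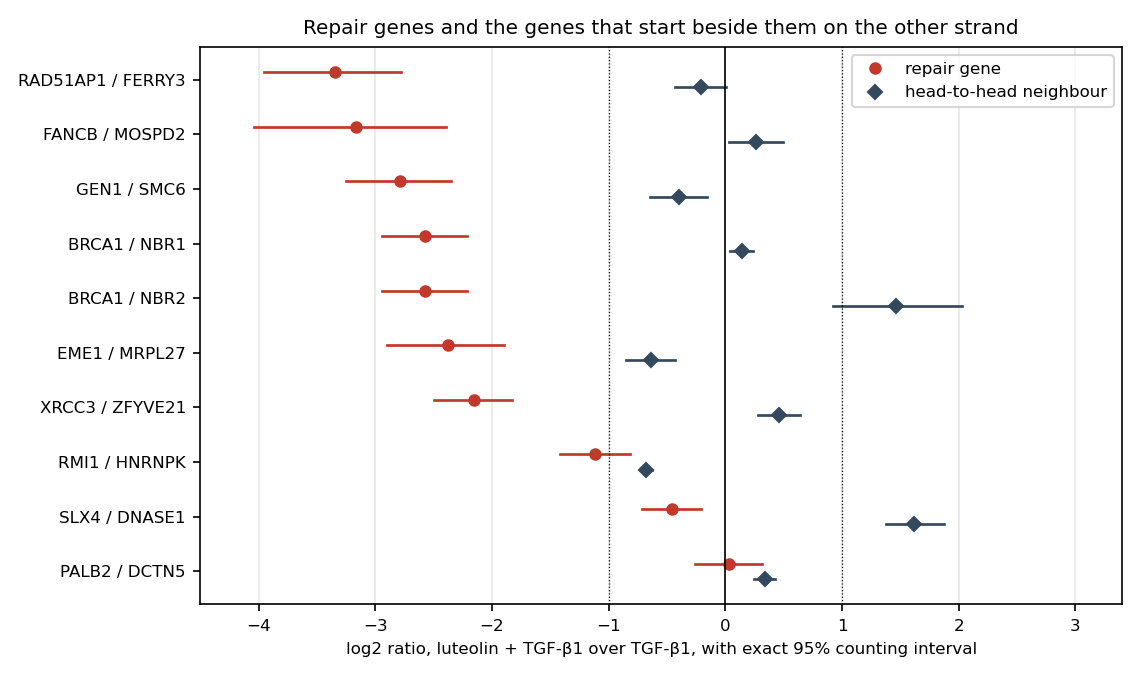
Log2 ratio, luteolin plus TGF-β1 over TGF-β1, with exact 95% counting intervals, for repair genes (circles) and for the gene that starts within 1000 bases on the other strand (diamonds), with 1 library per group. In the top 8 rows the circle lies past the 2-fold line at -1 and the diamond does not, as for BRCA1 at -2.57 and NBR2 at 1.46.

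Further genes of the Fanconi and recombination pathways, outside the 39, were also counted. Of 57 such genes that passed 1 CPM, 25 were called lower and 0 higher in luteolin plus TGF-β1 cells than in TGF-β1 cells, with a median log2 ratio of -0.87 beside -2.16 for the 39. CLSPN, the claspin adaptor through which ATR activates CHEK1, was at -3.78 (interval -4.24 to -3.35), PARPBP, an inhibitor of recombination, at -3.24, and TIMELESS, of the fork protection complex, at -2.97. In TGF-β1 cells against control cells, FAAP100, a partner of FANCB and FANCL, was the gene of this list called higher, just at the 2-fold limit with 1.00 (interval 0.87 to 1.13). Over all genes tested in that comparison, 3.70% were called higher. Among other repair routes, in luteolin plus TGF-β1 cells against TGF-β1 cells, end joining had 5 of 14 genes called lower and 0 higher, with a median log2 ratio of -0.70, and PRKDC, the catalytic subunit of DNA-PK, was at -1.29. Base excision repair had 7 of 19 lower and 1 higher, with a median of -0.50, and the nuclease gene FEN1 was at -2.57. Nucleotide excision repair had 0 of 17 lower and 1 higher, with a median of 0.10, and GTF2H5, a subunit of TFIIH, was at 1.26. Translesion synthesis had 0 of 7 lower and 1 higher, with a median of 0.25, and the polymerase gene POLI was at 1.57. Over all genes tested the shares were 14.8% lower and 12.5% higher. With so few genes, the counts in nucleotide excision repair and translesion synthesis are near these shares.

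Cell-cycle genes were lower in the same library. All 14 S-phase genes tested were called lower in luteolin plus TGF-β1 cells than in TGF-β1 cells, with a median log2 ratio of -3.32, and CDC45 was at -4.21. All 15 G2/M genes were called lower, with a median of -4.71, and KIF20A was at -6.78. For luteolin plus TGF-β1 cells against TGF-β1 cells, the shares over all genes tested were 14.8% lower and 12.5% higher. Of 12 p53 targets and cell-cycle inhibitors, 6 were called higher, among them CDKN1A, which encodes p21, at 4227 TPM in luteolin plus TGF-β1 cells, 979 TPM in TGF-β1 cells and 986 TPM in control cells. In TGF-β1 cells against control cells, 0 S-phase and 0 G2/M genes were called, and their medians were 0.35 and 0.38. Over all genes tested in that comparison, 3.70% were called higher and 6.67% lower, which counts of 0 in such short lists are near. The part of cell-cycle phase in the levels of the repair genes was not tested.

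**Figure D5:**
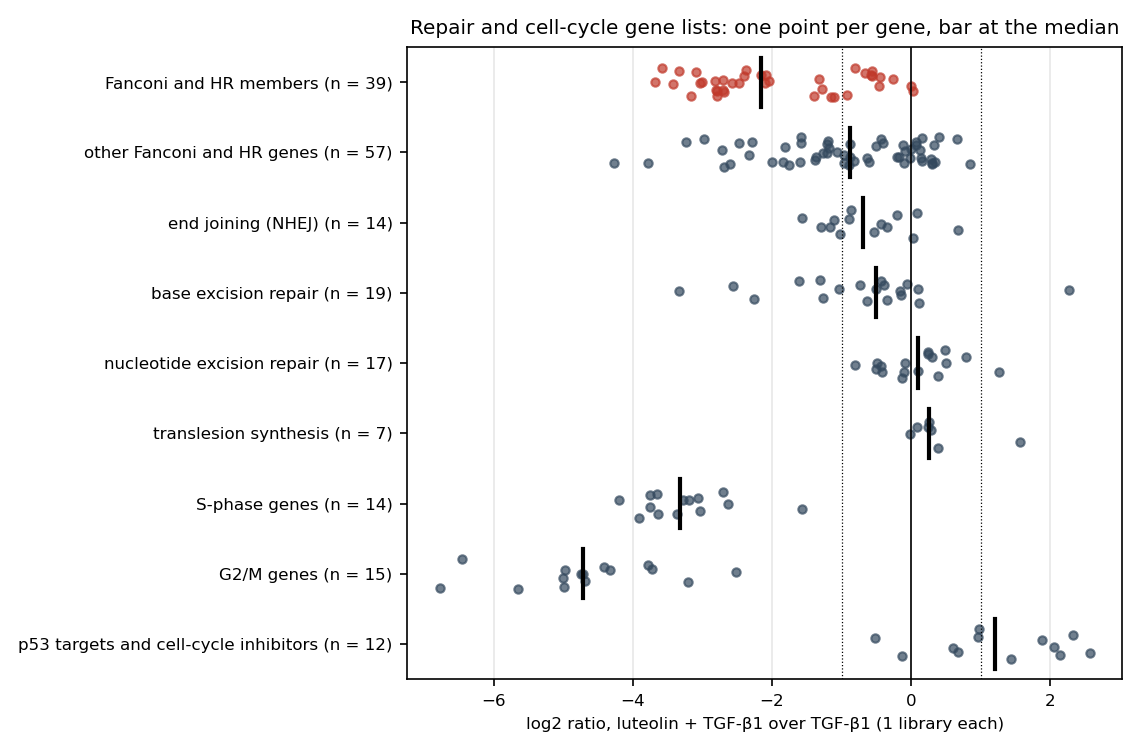
Log2 ratio, luteolin plus TGF-β1 over TGF-β1, of each gene at 1 CPM or more in the 39 repair genes and in the lists of other repair and cell-cycle genes, with the median of each list marked and 1 library per group. The medians are -2.16 for the 39 genes, -3.32 for S-phase genes and -4.71 for G2/M genes.

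In the authors' deposited table, 29 of the 39 genes had an adjusted p under 0.05 and were lower in luteolin plus TGF-β1 cells than in TGF-β1 cells, and 0 were higher, where 20.8% of its 15418 genes were lower and 20.0% higher. The genes in the authors' deposited table that did not pass were FANCC, FANCF, BARD1, PALB2, RAD51B, RAD51C, RAD51D, RAD54B, MUS81 and SLX4. For TGF-β1 over control, the authors' deposited table had 4 of the 39 genes higher (FANCG, BRIP1, XRCC2 and RAD54L), where 5.97% of its genes were higher and 7.70% lower. Those p-values compare single libraries, and edgeR's exact test returned the same values when the dispersion was set to 0.01. With the dispersion set to 0.04 that test gave 26 of the 39 genes lower with luteolin, where 9.24% of all genes were lower, and 0 higher with TGF-β1, where 1.63% were higher. At 0.16 it gave 4 of the 39 lower with luteolin, where 1.27% of all genes were lower, and 0 higher with TGF-β1, where 0.0778% were higher.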

How the data were processed

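Poly(A) mRNA of MRC5 cells was sequenced with the stranded TruSeq mRNA kit after TRIzol extraction, per the labels' protocols. The authors deposited whole-number counts per gene. TPM values were computed by the authors and deposited beside the counts. The log2 fold changes and p-values of the authors' deposited table compare single libraries, per the file headers. The submitters' processing notes name fastp 0.20.0, HISAT2 2.1.0, featureCounts 2.0.1, edgeR 3.36.0 and hg38, without role or order. For counting, the annotation release is unknown and its strand setting is not given in the sources used here. The miRNA libraries were not used here.

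Groups come from sample titles and columns from library names. Library sizes for scaling were totals multiplied by TMM factors from edgeR 4.0.16 in R 4.3.3, which were 0.879 for luteolin plus TGF-β1, 1.02 for TGF-β1 and 1.11 for control. Each ratio has an exact Clopper-Pearson 95% interval conditional on the sum of both counts (scipy 1.17.1). It covers counting error only, since 1 library per group gives no measure of the spread between replicates. It also treats reads as independent molecules, which they are not, so it can be too narrow. With 1 library per group no test was run, apart from recomputing the authors' exact test. A gene was called at 2-fold or more with the interval excluding equality, among genes that reached 1 CPM in either library compared. The floor for a gene at 0 is 3 counts, or 0.219 CPM for luteolin plus TGF-β1, 0.201 for TGF-β1 and 0.151 for control. The interval calculation was run on simulated Poisson counts with 200 changed genes. These counts follow the model that the interval assumes, so the run checks the calculation and not the spread between replicates. Partner ratios have exact conditional odds-ratio intervals.

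The 39 genes, 10 roles and 12 further lists were chosen with earlier results of these data known. Some items are not reported here. All 39 genes are covered. From the further lists the rule names the 3 called genes furthest from equality in each direction by the nearer interval bound, and all back-to-back neighbours with a count could be named. Gene positions and promoters are from RefSeq GRCh38.p14, the assembly of hg38. Alternatives were other scalings (total counts, upper quartile, DESeq2 1.42.0 size factors), no count filter or a 5 CPM filter, a 1.5-fold rule, the authors' TPM and, added after seeing the data, other assumed dispersions.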

Additional observations from a re-analysis of the deposited data

How the results depend on the processing

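No paired analysis was possible because each group is 1 library, and for the same reason no library could be left out. Across the other scalings, filters and fold rule, the number of the 39 genes called lower in luteolin plus TGF-β1 cells than in TGF-β1 cells stayed between 26 and 30. The share over all genes moved too. The 26 came with upper-quartile scaling, where 1605 of all 13739 genes tested were lower. The 30 came with total counts, where 2665 of 13537 were lower, and with the 1.5-fold rule, where 3332 of 13703 were. With the 5 CPM filter, 37 of the 39 genes were tested and 27 were lower, as were 1474 of all 10813. Scaling by total counts lowered the median of all genes by 0.23 in that comparison and upper-quartile scaling raised it by 0.19. The share of all calls that were higher was 45.7% under TMM, 30.8% under total counts and 58.1% under upper-quartile scaling, and in luteolin plus TGF-β1 against control 42.1%, 23.4% and 52.8% under the same scalings. With total counts the median of the 39 genes, luteolin plus TGF-β1 over control, was -2.13 instead of -1.79, by construction of the scaling. With a 1.5-fold rule, 5 of the 39 genes were called higher in TGF-β1 cells than in control cells instead of 0, where 8.29% of all genes were. At an assumed dispersion of 0.16, 4 of the 39 genes passed as lower with luteolin when the test behind the authors' deposited table was rerun, instead of 29, and 0 as higher with TGF-β1 at 0.04 and 0 at 0.16 instead of 4. These dispersions were chosen after seeing the data. Depth limits RAD54B and RAD51B most, at 7 and 23 counts in luteolin plus TGF-β1 cells.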

Other observations

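Some repair genes outside the 39 were called higher in luteolin plus TGF-β1 cells than in TGF-β1 cells. They were 1 of 19 in base excision repair, 1 of 17 in nucleotide excision repair and 1 of 7 in translesion synthesis. The further Fanconi and recombination genes had 0 of 57 and end joining 0 of 14, where 12.5% of all genes tested were called higher. In the lists of 7 to 19 genes, these counts are near that share. NEIL1, a glycosylase of base excision repair, had 31 counts in luteolin plus TGF-β1 cells, 7 in TGF-β1 cells and 21 in control cells, a log2 ratio to TGF-β1 of 2.27 (interval 1.06 to 3.70). NEIL3, a glycosylase of the same family that can unhook interstrand cross-links at stalled forks, was called lower at -3.34. The p53 targets BTG2 and GDF15 were called higher at 2.56 and 2.14.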
